A study of Homo sapiens with 18 samples.

Results

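A non-targeting siRNA is the usual control in a knockdown experiment, and the libraries compared here measured what this control itself changed in endothelial cells. The comparison set EA.hy926 cells that received a non-targeting siRNA (siNT) against cells that received the transfection reagent alone (Mock), before any poly(I:C) was added (0 h). It used 6 of the 18 RNA-seq libraries of the study, 3 siNT and 3 Mock, chosen by their labels and not by any measured value. EA.hy926 is a human line made by fusing umbilical vein endothelial cells with the A549 lung epithelial line. siNT cells were given 10 nM siRNA with Lipofectamine RNAiMAX, and Mock cells the same lipid with no siRNA. Both groups were kept in low serum overnight and lysed 48 h after the transfection, the time taken as 0 h. The other 12 libraries came from cells given a pool of 3 siRNAs against ELMO1 (siELMO1) at the same 10 nM at 0 h, and from the 3 kinds of cells after 24 h with 1 μg/ml poly(I:C), a synthetic double-stranded RNA. All values come from 1 line, no RNA-seq group of untransfected cells was among the samples, and the methods name several control siRNAs without saying which was sequenced, so the siRNA sequence was not used here. Changes due to the presence of any small duplex RNA and changes due to this particular sequence cannot be told apart in this comparison.

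An siRNA is a short RNA duplex that is loaded into an Argonaute protein, which keeps the guide strand and represses transcripts that pair with it. A control siRNA is designed to have no fully matched target in the transcriptome, but its guide strand still occupies Argonaute, and short matches of a guide to a transcript can be enough for partial repression. Duplex RNA can also be sensed: TLR3 detects it in endosomes, RIG-I and MDA5 (RIGI and IFIH1) detect it in the cytosol, and PKR (EIF2AK2) stops translation when it binds it. These sensors act through adaptors such as TICAM1 and MAVS on NF-κB and interferon regulatory factors, which turn on cytokines, chemokines and interferon-stimulated genes.

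The 6 libraries held 59.9 to 73.9 M estimated counts each, 61.9 to 73.9 M in Mock and 59.9 to 66.0 M in siNT. The methods report fewer paired-end reads per sample than this, so 1 sequenced fragment entered as more than 1 estimated count. Levels are given as CPM, counts scaled to a common library size of 1 M after TMM normalization, and a count of 0 in a library was taken to allow 3 counts, which is 0.0384 to 0.0493 CPM here for counting error only. Counted in sequenced fragments this floor would be higher, and folds bounded by it smaller. Within a group, Pearson correlations of log2 CPM across genes ran from 0.987 to 0.988, and chi-square values between library pairs were 10.9 to 21.2 times their degrees of freedom, so that no pair was alike within the sampling noise of these estimated counts. In sequenced fragments these ratios would be smaller. The first principal component of the 6 libraries held 54.6% of their variance and placed the Mock libraries at -36.4, -34.7 and -35.7 and the siNT libraries at 33.4, 38.6 and 34.6. Endothelial genes were read in both groups: 27 of the 30 listed identity genes had more than 3 counts in a library, EMCN, FLT4 and TAL1 being the exceptions, and their summed level was 3829 to 4020 CPM in Mock and 3872 to 3985 CPM in siNT. The summed level of 15 epithelial markers was 1521 to 1544 CPM in Mock and 1884 to 1916 CPM in siNT, with CDH1, CLDN3, NKX2-1 and SFTPC at or under 3 counts. Sums of 12 fibroblast and smooth muscle markers were 9.01 to 12.6 CPM against 6.96 to 7.22 CPM, with DCN, FBLN1 and LUM at or under 3 counts. Sums of 12 leukocyte markers were 54.1 to 77.7 CPM against 35.9 to 40.1 CPM, with CD3D, CD3E, FCGR3A and SPI1 among those at or under 3 counts, and the part of these shifts in the results was not tested. As these are bulk libraries, a change in the share of cells in a given state and a change in RNA per cell cannot be told apart. ELMO1, the target of the siRNA in the siELMO1 arm, checks the labels: its level was 3.04, 2.99 and 3.03 CPM in the Mock libraries, 2.85, 2.66 and 3.32 CPM in siNT and 0.299, 0.301 and 0.419 CPM in siELMO1 at 0 h. siNT and Mock overlapped for ELMO1 (log2 fold change -0.04, SE 0.24, adjusted p = 0.92, edgeR), and all 3 siELMO1 libraries were lower than every other 0 h library.

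The control siRNA moved a large part of the transcriptome, mostly by small amounts. Of 15167 genes tested, 7833 (51.6%) differed between siNT and Mock at an adjusted p under 0.05 (edgeR quasi-likelihood test, Benjamini-Hochberg), 4188 (27.6%) higher and 3645 (24.0%) lower in siNT. This balance turned under other settings: there were 3435 higher and 4225 lower genes when scaled by library totals alone, 3744 and 4015 with mitochondrially encoded genes left out, and 3290 to 3304 higher and 3592 to 3636 lower without each Mock library in turn. The median log2 fold change of all genes was 0.03, and -0.03 with library totals. The median log2 fold change was 0.39 among the higher genes and -0.53 among the lower genes, with a median standard error of 0.09 over all genes tested. A fold over 2 in addition left 333 genes higher (2.20%) and 655 lower (4.32%), and a fold over 4 left 44 higher and 63 lower. In 323 of the 333 and 639 of the 655 the 3 siNT libraries did not overlap the 3 Mock libraries, which was also so for 35.4% of all genes tested on the higher side and 30.4% on the lower side. The largest falls reached into abundant genes. Among 2378 genes that averaged 100 CPM or more, 57 (2.40%) were lower and 16 (0.67%) higher with a fold over 2, and 6 were lower and 0 higher by a fold over 4. Between 10 and 100 CPM the numbers were 192 lower and 105 higher of 7266 genes, and under 1 CPM they were 124 lower and 62 higher of 1554. Protein-coding genes made up 81.7% of the genes tested, 81.1% (270) of those higher and 70.8% (464) of those lower with a fold over 2, and long non-coding RNAs were 156 of the lower and 38 of the higher genes. The most used transcript of the protein-coding genes had a median length of 3904 bases for the lower genes, 3114 for the higher genes and 3390 for all tested, and a median GC content of 50.8%, 49.4% and 48.1%.

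**Figure D1:**
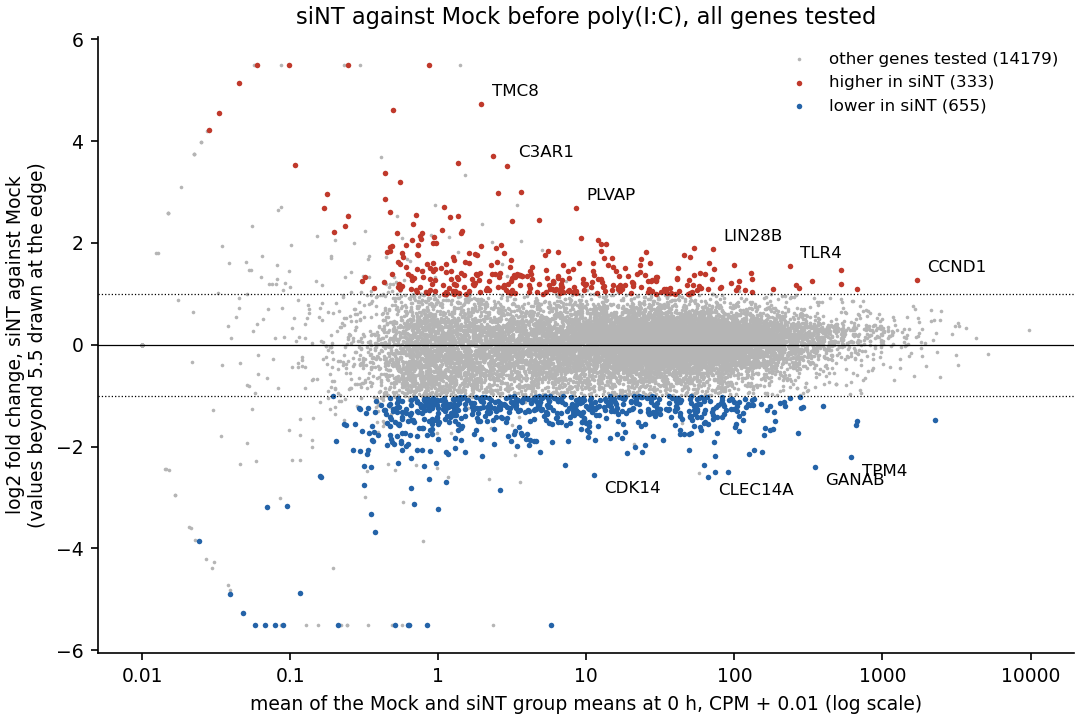
Each point is a gene, with its mean level at 0 h (CPM + 0.01, log axis) across and the log2 fold change of siNT against Mock up. Red and blue mark the 333 higher and 655 lower genes with an adjusted p under 0.05 and a fold over 2; dotted lines mark that fold, and to the right the blue points reach lower than the red points reach high.

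The genes that fell most had levels in siNT that were a small part of those in Mock. Of the 503 lower genes that carried a gene name, reached 1 CPM in a group and did not overlap between the groups, the 15 with the largest falls were RPL13AP26, LINC02547, LINC01111, NES, CCM2L, RHOU, CLEC14A, CDK14, ZNF664, SETD7, GANAB, SIGLEC15, SULT1B1, TPM4P3 and TUBA8. CLEC14A, a cell surface protein of endothelial cells (chr14:38254000-38256093), had 109.6, 109.5 and 120.0 CPM in the Mock libraries and 19.0, 18.0 and 19.4 CPM in siNT, with no overlap (log2 fold change -2.59, SE 0.14, adjusted p = 1.3e-10, edgeR as for all adjusted p that follow). The 3 libraries of each group lay close together and the groups were far apart, as they were for the next 4 genes. GANAB, the catalytic subunit of glucosidase II, which trims glycans of new glycoproteins in the endoplasmic reticulum (chr11:62624826-62646726), had 591, 582 and 591 CPM in Mock and 112, 107 and 117 CPM in siNT (log2 fold change -2.39, SE 0.08, adjusted p = 1.6e-13). SETD7, a lysine methyltransferase (chr4:139495941-139606699), had 127, 127 and 124 CPM in Mock and 23.7, 20.1 and 23.3 CPM in siNT (-2.49, SE 0.07, adjusted p = 3.5e-14). ZNF664, a zinc finger protein (chr12:123971845-124015439), had 153, 157 and 152 CPM in Mock and 27.6, 25.7 and 28.3 CPM in siNT (-2.50, SE 0.05, adjusted p = 1.1e-15); it overlaps RFLNA on the same strand, and reads of the pair may be split. SULT1B1, a cytosolic sulfotransferase (chr4:69721167-69787961), had 109, 103 and 103 CPM in Mock and 20.9, 19.8 and 20.7 CPM in siNT (-2.36, SE 0.12, adjusted p = 3.7e-11). All 5 were at or above 100 CPM in Mock, so that depth does not limit these values.

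The rest of the 15 were at lower levels. CDK14, a cyclin-dependent kinase that acts in Wnt signaling, had 19.6, 19.6 and 18.6 CPM in Mock and 3.92, 2.78 and 3.13 CPM in siNT (-2.55, SE 0.12, adjusted p = 2.2e-11), and other genes lie within its span on either strand. SIGLEC15, a sialic acid-binding lectin, had 12.0, 12.3 and 11.4 and 2.30, 1.84 and 2.80 CPM (-2.36, SE 0.18, adjusted p = 7.4e-09). LINC01111, a long non-coding RNA, had 4.76, 4.61 and 4.44 and 0.418, 0.888 and 0.599 CPM (-2.86, SE 0.29, adjusted p = 2.2e-07). CCM2L, a relative of the CCM2 scaffold that is expressed in endothelial cells, NES (nestin, an intermediate filament protein), RHOU (an atypical small GTPase), TUBA8 (an alpha-tubulin) and LINC02547 had Mock means between 1.06 and 1.95 CPM and siNT means between 0.138 and 0.300 CPM, with log2 fold changes from -3.12 to -2.22. A pair of pseudogenes completed the 15 and may share reads with their parent genes: TPM4P3 (-2.32, SE 0.33, adjusted p = 1.5e-05), a copy of TPM4, and RPL13AP26, a copy of RPL13A. RPL13AP26 had 1.35, 1.03 and 1.38 CPM in Mock and no count in any siNT library. Set against 3 estimated counts per library it was 27.0-fold lower, and a bound in sequenced fragments would be smaller. In addition, 1 of 3 siELMO1 libraries and 2 of 3 Mock libraries at 24 h were at 0.

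Abundance gives a second view of the same set, chosen after the values were seen: the 12 lower genes with at least 100 CPM in Mock and the largest falls. Besides CLEC14A, ZNF664, SETD7, GANAB and SULT1B1 these were TPM4, OGFR, MYCT1, KIF1C, NOLC1, VOPP1 and PLCB4. TPM4, a tropomyosin that coats actin filaments (chr19:16067021-16103002), had 1016, 1005 and 1024 CPM in Mock and 222, 217 and 222 CPM in siNT (-2.20, SE 0.06, adjusted p = 1.8e-14), the highest Mock level of the 12. MYCT1, a membrane protein found in endothelial cells, had 206, 200.5 and 210.3 and 46.5, 43.5 and 49.1 CPM (-2.15, SE 0.06, adjusted p = 8.4e-14). KIF1C, a kinesin motor, had 251, 245 and 250.2 and 58.3, 53.1 and 62.5 CPM (-2.10, SE 0.07, adjusted p = 2.0e-13). In each of these 3 the lowest Mock library was far above the highest siNT library. NOLC1, a nucleolar phosphoprotein, had 220.4, 220.0 and 213 and 51.5, 51.7 and 52.8 CPM (-2.07, SE 0.09, adjusted p = 4.7e-12). OGFR, the opioid growth factor receptor, fell from 121 ± 2.83 CPM to 26.5 ± 1.09 CPM (SD, n = 3), VOPP1 from 115 ± 2.09 to 30.7 ± 3.10 CPM and PLCB4, a phospholipase C, from 246 ± 12.5 to 71.9 ± 0.870 CPM. siELMO1 cells received a pool of 3 siRNAs at the same total dose, so siELMO1 and siNT do not compare single sequences at an equal dose. The siELMO1 comparison uses the same Mock libraries, so its values are given only side by side. Within siELMO1 at 0 h, replicate 1 lay apart from replicates 2 and 3, with chi-square values 70.3 and 78.5 times their degrees of freedom. Between replicates 2 and 3 the ratio was 10.1. GANAB had 627, 525 and 538 CPM in the siELMO1 libraries, with a log2 fold change against Mock of -0.06 (adjusted p = 0.51), against -2.39 in siNT. The corresponding pairs of siELMO1 and siNT values were -0.17 and -2.49 for SETD7, 0.22 and -2.20 for TPM4, 0.71 and -2.59 for CLEC14A, and -1.35 and -2.36 for SULT1B1. Of the 12 genes, SULT1B1 had the siELMO1 level farthest below Mock.

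**Figure D2:**
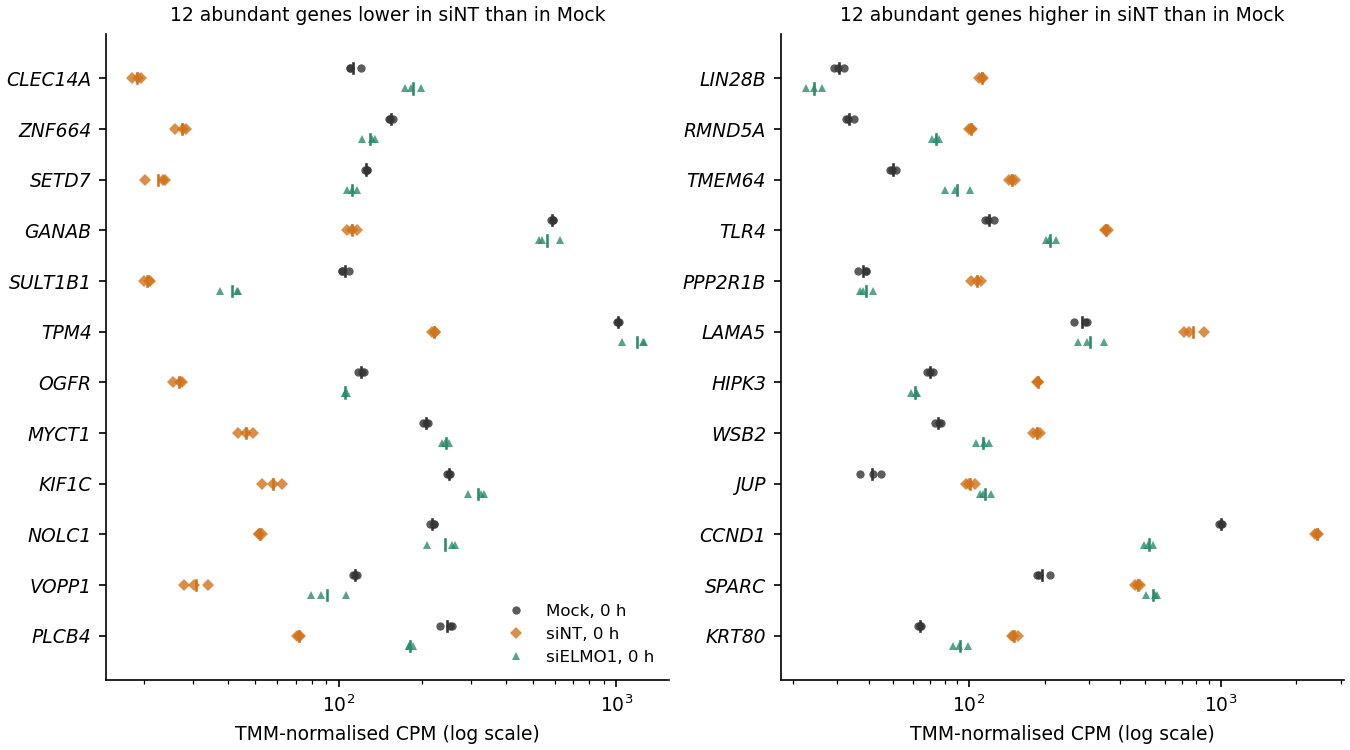
Levels at 0 h (TMM-normalised CPM, log axis) of the 12 lower (left) and 12 higher (right) abundant genes in each of the 3 Mock, 3 siNT and 3 siELMO1 libraries; points are libraries and short bars group means. On the left the siNT points lie apart from Mock in every gene, and the siELMO1 points lie nearer to Mock than to siNT except for SULT1B1.

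Estimates per transcript show whether a fall was also read in the most used transcript of a gene. The leading transcript of GANAB, the one with the most counts, carried 32.7% of the gene's counts in Mock and 40.3% in siNT, with a log2 ratio of siNT to Mock of -2.05. For TPM4 the leading transcript's share was 67.6% and 54.7% (log2 ratio -2.50), and for ZNF664 47.2% and 32.2% (-3.06). SETD7 and KIF1C had at least 98.8% of their counts in the leading transcript in both groups, with log2 ratios of -2.49 and -2.10. The fall in these 5 genes was thus also read in the leading transcript, and these ratios were not tested. For SETD7 and KIF1C the ratio nearly repeats the gene value, as almost all counts lie in that transcript. The other transcripts of the 5 genes are not given.

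The genes that rose most came from low levels in Mock. Of the 259 higher genes that met the same conditions, the 15 with the largest rises were TMC8, PTGES, C3AR1, VWA5A, PLVAP, KLRC2, LINC01605, RGS13, SLC22A18, UNC5B, LINC02104, EPB41L4B, LINC01293, KLRC3 and PARD6B. TMC8, a membrane protein linked to zinc transport and papillomavirus susceptibility, had 0, 0.203 and 0.205 CPM in Mock and 3.57, 3.67 and 4.01 CPM in siNT (4.73, SE 0.52, adjusted p = 7.2e-07), and it overlaps TMC6 on the opposite strand. PTGES, the inducible synthase of prostaglandin E2 (chr9:129738331-129753042), had 0.245, 0.0811 and 0.294 and 2.59, 2.55 and 2.29 CPM (3.57, SE 0.50, adjusted p = 1.2e-05). C3AR1, the receptor of the complement fragment C3a (chr12:8056844-8066359), had 0.336, 0.663 and 0.397 and 5.20, 5.59 and 5.33 CPM (3.52, SE 0.17, adjusted p = 2.5e-11). In these 3 genes every siNT library was far above the highest Mock library. PLVAP, which forms the diaphragms of endothelial fenestrae and caveolae (chr19:17351450-17377342), had 1.93, 2.18 and 2.71 and 15.4, 13.4 and 15.2 CPM (2.69, SE 0.24, adjusted p = 4.7e-08). VWA5A had 1.07, 0.798 and 0.524 and 6.40, 6.07 and 6.71 CPM (3.01, SE 0.32, adjusted p = 4.5e-07). KLRC2 and KLRC3, neighbouring paralogs of the NKG2 receptor family that may share reads, rose by 2.45 and 2.11 on the log2 scale. PARD6B, a subunit of the Par polarity complex, had 3.62, 3.20 and 3.59 and 15.3, 15.4 and 14.0 CPM (2.10, SE 0.14, adjusted p = 1.2e-09). UNC5B, a netrin receptor of endothelial cells, rose by 2.23 and SLC22A18, EPB41L4B, LINC01605, LINC02104 and LINC01293 by 2.14 to 2.43 on the log2 scale. RGS13, a regulator of G protein signaling, rose by 2.38 (adjusted p = 0.015) and lost its call without Mock replicate 1 (1.96, adjusted p = 0.069).

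Among abundant genes, again chosen after the values were seen, the 12 with at least 100 CPM in siNT and the largest rises were LIN28B, RMND5A, TMEM64, TLR4, PPP2R1B, LAMA5, HIPK3, WSB2, JUP, CCND1, SPARC and KRT80. LIN28B, an RNA-binding protein that blocks the maturation of let-7 miRNAs (chr6:104936616-105083332), had 31.8, 30.3 and 29.2 CPM in Mock and 109.5, 114 and 113 CPM in siNT (1.88, SE 0.05, adjusted p = 5.8e-14). TLR4, the receptor of bacterial lipopolysaccharide (chr9:117704175-117724735), had 119, 116 and 125 and 349, 347 and 358 CPM (1.55, SE 0.07, adjusted p = 7.8e-12). CCND1, cyclin D1 of the G1 phase (chr11:69641156-69654474), had 999.7, 1014 and 984 and 2441, 2423 and 2375 CPM (1.27, SE 0.04, adjusted p = 4.3e-13). The libraries of each group were again within a narrow range, with no overlap between groups. LAMA5, a laminin chain of the vascular basement membrane, had 288, 294 and 262 and 856, 719 and 748 CPM (1.46, SE 0.10, adjusted p = 2.5e-09), and SPARC, a matrix-associated glycoprotein, 189, 187 and 211 and 456, 477 and 469 CPM (1.26, SE 0.09, adjusted p = 3.5e-09). The siELMO1 and siNT log2 fold changes against the shared Mock libraries were -0.33 and 1.88 for LIN28B, -0.95 and 1.27 for CCND1, 0.11 and 1.46 for LAMA5, 0.81 and 1.55 for TLR4, and 1.46 and 1.26 for SPARC. SPARC and TLR4 were thus above Mock both with siNT and with the siELMO1 pool, while CCND1 was above Mock with siNT and below it with siELMO1. Genes on the opposite strand overlap CCND1 (LTO1), LAMA5 (ADRM1 and LAMA5-AS1), PPP2R1B (SIK2) and WSB2 (RFC5), and likewise CASP8 (FLACC1), IL6 (STEAP1B and IL6-AS1) and TNFAIP3 (WAKMAR2) among the genes of later paragraphs, so reads of these pairs may be split.

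Gene lists for pathways that a small duplex RNA may touch, and for functions of the endothelial cell, are read here against the shares over all genes tested, 27.6% higher and 24.0% lower by adjusted p, with a median log2 fold change of 0.03. Of the genes of the RNA interference machinery, more were higher than lower in siNT. Of this list, 13 of 24 tested members were higher and 4 lower (54.2% and 16.7%), and the median log2 fold change was 0.27. AGO2, the Argonaute protein that cleaves fully paired targets, had 123, 133 and 125 CPM in Mock and 232, 201 and 208 CPM in siNT (0.75, SE 0.07, adjusted p = 4.3e-08). TNRC6A, a GW182 protein that binds Argonaute and recruits deadenylases, had 120.5, 118 and 111 and 256, 247 and 244 CPM (1.10, SE 0.06, adjusted p = 1.1e-10). DICER1, which cuts precursor hairpins into miRNAs, went from 146 ± 5.30 to 233 ± 9.66 CPM (SD, n = 3, as after every ± of a level), on the log2 scale 0.67, SE 0.06, adjusted p = 1.1e-07. For each of these 3, every siNT library was above every Mock library. DROSHA, the nuclear enzyme that releases the hairpins from primary transcripts, moved the other way, with 84.3, 85.4 and 85.1 CPM in Mock and 41.0, 37.4 and 40.6 CPM in siNT (-1.10, SE 0.09, adjusted p = 3.5e-08). The siELMO1 log2 fold change against Mock was -1.07 for AGO2 and 0.11 for DROSHA. Further higher members were ERI1 (0.81), AGO3 (0.73) and TNRC6B (0.56), and the nuclease cofactor SND1 (-0.53) was lower.

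Among sensors of double-stranded RNA and their adaptors, rises outnumbered falls and were small. Of this list, 8 of 18 tested members were higher and 2 lower, with a median log2 fold change of 0.20. TLR3, the endosomal sensor that poly(I:C) engages, had 16.1, 18.7 and 16.7 CPM in Mock and 21.8, 26.4 and 26.0 CPM in siNT, without overlap (0.53, SE 0.11, adjusted p = 8.0e-04). TICAM1, the adaptor of TLR3, rose from 18.5 ± 1.26 to 24.4 ± 1.88 CPM (0.40, SE 0.07, adjusted p = 8.1e-05), and MYD88, the adaptor of most other Toll-like receptors, from 53.8 ± 2.03 to 76.3 ± 0.325 CPM (0.50, SE 0.07, adjusted p = 7.9e-06). The kinase TBK1 rose by 0.39, the cytosolic DNA pathway adaptor STING1 by 0.67, the ubiquitin ligase TRIM25 by 0.56, EIF2AK2 by 0.24 and MAVS by 0.22 on the log2 scale. Each of these 8 rises was below a fold of 2. TRAF3, a signaling adaptor that links these sensors to interferon regulatory factors, was the exception, with 58.0, 60.1 and 57.1 CPM in Mock and 27.8, 25.3 and 27.4 CPM in siNT (-1.12, SE 0.06, adjusted p = 2.3e-10) and 64.8, 63.5 and 56.2 CPM in siELMO1. IRF7 was lower (-0.34), and RIGI (0.14, adjusted p = 0.33), IFIH1 (0.19, adjusted p = 0.2) and IRF3 (0.02, adjusted p = 0.88) did not pass the test.

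Interferon-stimulated genes changed in both directions, more often upward. Of 50 listed, 24 of 48 tested members were higher and 6 lower, with a median log2 fold change of 0.26; 3 rose and 1 fell by a fold over 2. OAS1, which makes the activator of RNase L in the presence of double-stranded RNA, had 33.6, 32.8 and 33.5 CPM in Mock and 66.8, 69.8 and 65.8 CPM in siNT (1.02, SE 0.07, adjusted p = 2.1e-09). GBP2, a guanylate-binding protein, went from 1.01 to 2.62 CPM (1.37, SE 0.25, adjusted p = 1.8e-04) and RTP4, a chaperone-like antiviral protein, from 0.455 to 1.35 CPM (1.60, SE 0.31, adjusted p = 3.0e-04). IRF1 (0.47), IFITM1 (0.64), IFITM3 (0.51) and STAT2 (0.21) were higher by smaller amounts. USP18, which removes ISG15 from proteins and damps interferon receptor signaling, fell from 21.8, 23.1 and 23.1 CPM to 8.62, 10.3 and 9.63 CPM (-1.25, SE 0.08, adjusted p = 1.7e-09), and siELMO1 libraries had 10.1, 10.4 and 10.8 CPM. IFI44 (-0.74), IFI16 (-0.69) and MX1 (-0.89) were also lower. ISG15, the ubiquitin-like modifier among the best known of these genes, had 11.6, 12.6 and 13.3 CPM in Mock and 11.9, 12.6 and 9.78 CPM in siNT and did not pass (-0.14, SE 0.14, adjusted p = 0.45), and IFIT1 (-0.23, adjusted p = 0.16) and RSAD2 (-0.86, adjusted p = 0.28) did not either.

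Before any poly(I:C), cytokine and chemokine genes were called higher in siNT more often than all genes. Of the tested members, 14 of 25 were higher and 0 lower, with a median log2 fold change of 0.51, and 6 of the higher members exceeded a fold of 2. DESeq2 also gave 14 higher and 0 lower members, limma-voom 10 and 0 and the fit with the replicate number as a block 14 and 1, and at an unadjusted p under 0.05 the main test gave 14 and 1. IL1B, the precursor of interleukin-1 beta, had 3.09, 2.68 and 2.65 CPM in Mock and 10.2, 10.1 and 9.60 CPM in siNT (1.83, SE 0.11, adjusted p = 2.9e-10). IL1A had 7.84, 8.48 and 6.65 and 17.4, 18.5 and 18.2 CPM (1.23, SE 0.08, adjusted p = 6.4e-10), and CSF1, the macrophage growth factor, 6.12, 7.79 and 6.73 and 17.2, 16.8 and 16.8 CPM (1.30, SE 0.08, adjusted p = 7.1e-10). Neither these 3 genes nor the next 2 overlapped between groups. CCL20, a chemokine of lymphocytes and dendritic cells, had 0.214, 0.352 and 0.179 and 0.927, 0.855 and 0.823 CPM (1.80, SE 0.32, adjusted p = 1.5e-04), and CSF2, the granulocyte and macrophage growth factor GM-CSF, 0.382, 0.581 and 0.486 and 1.03, 1.71 and 1.27 CPM (1.45, SE 0.31, adjusted p = 7.0e-04); with limma-voom their adjusted p values were 0.058 and 0.069. CXCL8, the neutrophil chemokine interleukin-8, had 14.5, 18.1 and 14.4 and 20.9, 19.7 and 21.5 CPM (0.40, SE 0.11, adjusted p = 0.0055), and without Mock replicate 3 it lost its call (0.30, adjusted p = 0.053). IL6 had 1.12, 1.56 and 1.55 CPM in Mock and 1.84, 0.773 and 1.66 CPM in siNT, with overlap (0.02, SE 0.25, adjusted p = 0.95), and the sign of this value turned under 7 other settings. IFNB1, IFNL1, TNF and CXCL10 had no count in any of the 6 libraries, which in estimated counts allows up to the floor of 0.0384 to 0.0493 CPM. The siELMO1 log2 fold change against Mock was 0.88 for IL1B, 0.98 for CSF1, -0.12 for CCL20, 0.19 for CXCL8 and 0.86 for IL6.

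Of NF-κB subunits, inhibitors and early targets, 9 of 22 tested members were higher and 3 lower, with a median log2 fold change of 0.10 (0.042 with library totals), and in the 6 libraries alone 9 were higher and 6 lower. BIRC3, a ubiquitin ligase of TNF receptor signaling, had 1.18, 1.41 and 1.05 CPM in Mock and 3.30, 4.69 and 3.32 CPM in siNT (1.63, SE 0.17, adjusted p = 2.9e-07), while siELMO1 had 0.885, 0.603 and 0.839 CPM. The inhibitors TNFAIP3 (19.0 ± 1.65 to 30.9 ± 2.24 CPM, log2 fold change 0.70), NFKBIA (57.4 ± 1.12 to 82.2 ± 0.768 CPM, 0.52) and NFKBIE (4.12 ± 0.104 to 9.41 ± 0.225 CPM, 1.19) rose. NFKBIB, another inhibitor, fell (31.6 ± 0.439 to 14.0 ± 1.39 CPM, -1.17, SE 0.08, adjusted p = 1.8e-09), as did PTGS2, the inducible cyclooxygenase that supplies the substrate of PTGES (17.1, 18.2 and 18.7 CPM in Mock and 6.96, 4.85 and 6.15 CPM in siNT, -1.59, SE 0.14, adjusted p = 5.7e-08). PTGES and PTGS2, successive enzymes of prostaglandin E2 synthesis, thus moved in opposite directions. The subunits RELA (0.10), RELB (0.10) and NFKB1 (0.03) did not pass, and NFKB2 rose by 0.41. Among leukocyte adhesion molecules, ICAM1 rose from 6.64, 7.92 and 6.56 to 14.0, 12.9 and 15.0 CPM (0.99, SE 0.08, adjusted p = 1.3e-08) and PECAM1 from 161, 148 and 186 to 314, 305 and 322 CPM (0.93, SE 0.22, adjusted p = 0.0021), while ICAM2 fell by 0.42 on the log2 scale.

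**Figure D3:**
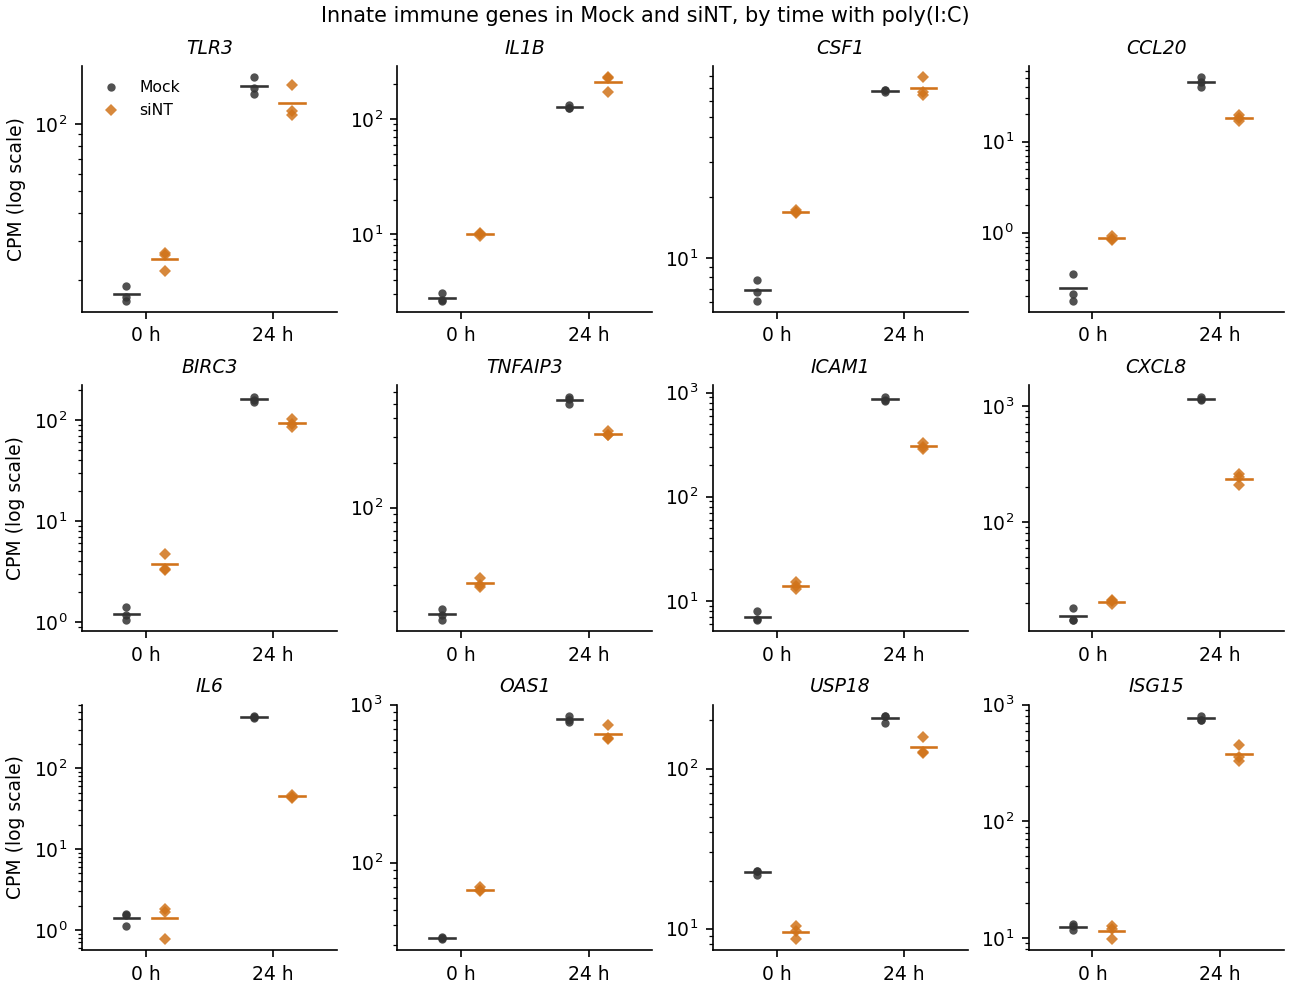
Levels (CPM, log axis with its own range in each panel) of 12 innate immune genes in the 3 Mock and 3 siNT libraries at 0 h and after 24 h of poly(I:C); points are libraries and short bars group means. At 0 h siNT lies above Mock for 9 genes, below it for USP18 and overlaps it for IL6 and ISG15, whereas at 24 h CXCL8, IL6, ICAM1, CCL20 and BIRC3 lie lower in siNT.

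Genes of the death receptor pathway were more often higher than lower. Of this list, 12 of 23 tested members were higher and 4 lower, with a median log2 fold change of 0.21. CASP8, the initiator caspase of death receptors, had 52.2, 55.4 and 57.0 CPM in Mock and 80.2, 83.6 and 83.1 CPM in siNT (0.58, SE 0.06, adjusted p = 5.3e-07). The receptors TNFRSF1A (164 ± 2.03 to 273 ± 3.87 CPM, 0.73 on the log2 scale), TNFRSF10A (0.73) and FAS (0.74) rose, as did CASP9, the initiator caspase of the mitochondrial route (0.79). Cytochrome c (CYCS), which mitochondria release in apoptosis, fell from 148 ± 1.89 to 95.4 ± 3.35 CPM (-0.63). CFLAR, which holds caspase-8 in check, was lower by a small amount (-0.35, SE 0.11, adjusted p = 0.011). In the BCL2 family, 2 of 14 members were higher and 6 lower. MCL1, a protector, rose (268 ± 7.91 to 480.0 ± 9.46 CPM, 0.84), as did BAK1, an executioner of the family (18.7 ± 0.459 to 35.6 ± 1.21 CPM, 0.93), while the protector BCL2L1 fell (201 ± 5.56 to 114 ± 1.02 CPM, -0.81, SE 0.04, adjusted p = 2.2e-11). The protector BCL2A1 (-0.75) and the sensitiser BBC3 (-0.55) were lower too, so members of both kinds were found in each direction.

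Genes of DNA replication were more often lower in siNT, and G1 regulators more often higher. Of 43 S phase genes, 26 were lower and 2 higher, with a median log2 fold change of -0.24 (60.5% lower, beside 24.0% of all genes), and of 54 G2/M genes 19 were lower and 8 higher (-0.10), against 30 lower in the 6 libraries alone. RRM2, the regulated subunit of ribonucleotide reductase, had 388, 379.6 and 377 CPM in Mock and 219, 211 and 215 CPM in siNT (-0.83, SE 0.07, adjusted p = 6.1e-08). PRIM1, the catalytic subunit of primase, fell by 0.63 and the repressor E2F8 by 1.05 on the log2 scale, and E2F1, an activator of S phase genes, went from 72.2 ± 0.445 to 38.9 ± 2.37 CPM (-0.89, SE 0.10, adjusted p = 1.5e-06). PCNA, the replication clamp, changed little (433 ± 0.627 to 367 ± 11.1 CPM, -0.24, SE 0.07, adjusted p = 0.0056). In G2/M, BIRC5 (survivin, -1.20), CENPF (-1.20), CENPA (-0.95) and TACC3 (-0.94) were lower, CDK1 was slightly higher (0.29, SE 0.06, adjusted p = 0.0011), and MKI67, which encodes Ki-67, did not pass (-0.21, SE 0.12, adjusted p = 0.16). siELMO1 values against Mock were -2.78 for RRM2, -2.26 for E2F1, -2.32 for CDK1 and -2.12 for MKI67. Among G1 genes, 11 of 23 were higher and 6 lower. Besides CCND1, the inhibitors CDKN1A (p21, 175 ± 2.11 to 334 ± 8.96 CPM, 0.94) and CDKN1B (p27, 48.5, 46.0 and 48.3 to 94.0, 97.7 and 91.6 CPM, 0.99) rose. Of replication-dependent histones, 0 of 21 were higher and 4 lower (19.0%, below the 24.0% of all genes). These poorly polyadenylated transcripts are read incompletely by an mRNA kit.

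Of p53 targets, 16 of 28 tested members were higher and 8 lower, with a median log2 fold change of 0.22. SESN1 (0.88), GADD45A (0.85), TP53INP1 (0.62) and MDM2 (0.30) rose with CDKN1A. XPC, a DNA damage recognition factor, fell from 109.8, 112 and 112 to 41.5, 40.8 and 41.9 CPM (-1.43, SE 0.07, adjusted p = 2.2e-11) and PERP, a desmosome protein, from 23.3, 22.4 and 22.3 to 6.47, 6.59 and 6.03 CPM (-1.83, SE 0.10, adjusted p = 1.1e-10). siELMO1 had 107, 126 and 132 CPM for XPC and 19.8, 19.5 and 18.7 CPM for PERP. With SPATA18 (-1.05) these 3 were the members that moved by a fold over 2, and all 3 fell.

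Oxidative stress genes were more often higher and endoplasmic reticulum stress genes more often lower. Of targets of NRF2, which responds to oxidants, 16 of 24 were higher and 1 lower, with a median log2 fold change of 0.39. GSR, which regenerates glutathione, went from 74.7 ± 1.38 to 126 ± 2.69 CPM (0.76) and thioredoxin (TXN) from 232 ± 4.05 to 349 ± 23.7 CPM (0.59), whereas ME1, a source of NADPH, fell from 71.6 ± 1.45 to 37.0 ± 1.31 CPM (-0.95). HMOX1 (0.12, adjusted p = 0.23) and SLC7A11 (0.08, adjusted p = 0.54) did not pass, and AKR1C1 and AKR1C3 are near-identical copies whose reads may be split. Of ATF4 and unfolded protein response genes, 16 of 29 were lower and 5 higher (-0.21). ATF3, a stress-induced transcription factor, fell from 17.0, 18.1 and 15.9 to 6.90, 7.65 and 7.56 CPM (-1.21, SE 0.09, adjusted p = 4.4e-09), and siELMO1 had 9.34, 8.92 and 8.51 CPM. The chaperone CALR (806 ± 23.1 to 532 ± 4.23 CPM, -0.60), the serine synthesis enzymes PSPH (-0.70) and PHGDH (-0.73) and ATF4 itself (-0.38) were lower, and CHAC1 (1.13) and SLC7A5 (0.72) higher. Heat shock proteins gave 5 higher and 6 lower of 20, with HSP90AA1 (-0.64) and HSPD1 (-0.55) among the lower.

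In metabolism, 14 of 31 sterol and fatty acid synthesis genes were higher and 7 lower. HMGCS1, a synthase early in the mevalonate pathway, went from 109, 114 and 115 to 211, 219 and 218 CPM (0.94, SE 0.07, adjusted p = 7.5e-09). PMVK, a later mevalonate kinase, fell from 15.6 ± 0.976 to 7.14 ± 0.174 CPM (-1.12, SE 0.09, adjusted p = 2.0e-08). Of glycolysis and hypoxia genes, 16 of 30 were higher and 5 lower: LDHA, which makes lactate, rose (1622 ± 35.3 to 2597 ± 63.3 CPM, 0.68), while the phosphofructokinase subunit PFKL fell (101 ± 1.32 to 42.3 ± 2.39 CPM, -1.25, SE 0.05, adjusted p = 2.3e-12). Drug-metabolising enzymes gave 8 higher and 4 lower of 17, and CYP2U1 (-1.18) fell with SULT1B1. Of AP-1, EGR and Kruppel-like factors, 7 of 22 were higher, among them JUNB (0.86), FOSL1 (0.95) and KLF4 (0.98), and 7 were lower, among them FOSB (-1.66), FOS (-1.05) and MAFF (-0.997).

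Endothelial identity genes changed in both directions, and their summed level overlapped between groups. Of 26 tested, 6 were higher and 6 lower (23.1% each), no more often than the 27.6% and 24.0% of all genes. The fit of the 6 libraries alone gave 8 higher and 14 lower, and DESeq2, library totals and leaving out mitochondrially encoded genes each gave 6 and 9. ERG, a transcription factor that maintains endothelial identity (chr21:38380027-38661780), had 95.1, 97.1 and 106 CPM in Mock and 33.3, 31.8 and 35.9 CPM in siNT (-1.56, SE 0.11, adjusted p = 3.8e-09). TEK, the angiopoietin receptor TIE2, had 106, 105 and 111 and 48.9, 41.6 and 52.1 CPM (-1.17, SE 0.08, adjusted p = 2.0e-09). Both fell without overlap, as CLEC14A did. siELMO1 had 126, 163 and 169 CPM for ERG and 103, 100.4 and 110.0 CPM for TEK. CDH5 (VE-cadherin) rose from 353 ± 13.7 to 438 ± 17.0 CPM (0.31, SE 0.07, adjusted p = 9.9e-04), and the factors FLI1 (0.55) and SOX17 (0.65) were higher. VWF (5.31, 5.42 and 6.05 CPM in Mock and 3.68, 4.16 and 3.50 CPM in siNT, -0.57, SE 0.26, adjusted p = 0.079) and KDR, the main VEGF receptor (5.05, 5.00 and 5.54 and 8.38, 6.15 and 6.59 CPM, 0.44, SE 0.29, adjusted p = 0.23), did not pass; fitted on the 6 libraries alone they gave adjusted p = 0.0015 and 0.019. Of the epithelial markers, KRT7 rose from 754 ± 7.60 to 1084 ± 15.1 CPM (0.52), MUC1 fell (-1.43), and CLDN7 (2.54, adjusted p = 0.047) stayed under 1 CPM and lost its call in 9 of 15 alternatives. LYZ of the leukocyte markers rose (0.69, adjusted p = 0.0073; 0.52, adjusted p = 0.060 without Mock replicate 2) and CD68 (-0.86) and ACTA2 of the smooth muscle markers (-0.96) fell.

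Genes of the TGF-β and BMP pathways were called in both directions more often than all genes (40.5% each), with 15 higher and 15 lower of 37. INHBA, a subunit of activin A, fell from 73.4, 74.3 and 71.2 to 27.1, 29.8 and 25.2 CPM (-1.41, SE 0.09, adjusted p = 5.7e-10). TGFBR2, the ligand-binding receptor, rose from 424, 423 and 435 to 918, 883 and 927 CPM (1.09, SE 0.05, adjusted p = 3.6e-11), as did the ligand TGFB2 (1.31). Of the ligands, TGFB2 and INHBA thus moved in opposite directions. GREM1, a BMP antagonist, was under 1 CPM in both groups and lower in siNT (-2.38). In the Notch pathway 7 of 19 were higher and 2 lower: the ligand JAG1 rose from 137 ± 4.12 to 255 ± 2.93 CPM (0.90) and LFNG, which glycosylates the receptor, from 6.44, 5.45 and 6.51 to 21.0, 19.8 and 19.6 CPM (1.71), and the target HEY1 fell (-0.45). Of thrombospondin and CCN genes, 3 of 15 were higher, among them SPARC, and 2 lower, among them CCN1 (312 ± 13.0 to 183 ± 6.31 CPM, -0.77).

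In the matrix, 9 of 20 collagens were lower and 4 higher, with a median log2 fold change of -0.25, which ran from -0.38 without Mock replicate 3 to -0.064 without siNT replicate 1. COL5A2 fell from 268, 268 and 276 to 155, 145 and 161 CPM (-0.82, SE 0.06, adjusted p = 2.4e-09), and COL4A1 (-0.62), COL5A1 (-0.78) and COL17A1 (-1.34) were also lower. Laminin chains moved in opposite directions, LAMA5 up (1.46) and LAMA4 (802 ± 14.1 to 411 ± 28.0 CPM, -0.96) down. LAMA4 and LAMA5 are the laminin alpha chains of endothelial basement membranes. Integrins gave 4 higher and 4 lower of 18 (22.2% each, beside 27.6% and 24.0% of all genes), and 7 higher in the 6 libraries alone. ITGA2 (0.57) was up and ITGB3 (-0.87) and ITGA6 (-0.58) were down. Cadherins and protocadherins gave 12 lower and 5 higher of 34 (-0.42), and members of the protocadherin clusters share exons, so reads may be split among them. Of matrix proteases and inhibitors, 8 of 21 were higher and 4 lower, and the inhibitors TIMP1 (0.57), TIMP2 (0.40) and TIMP3 (0.62) all rose. Guidance genes gave 14 higher and 8 lower of 45: NTN4, a netrin, fell from 267, 267 and 261 to 84.2, 80.4 and 85.3 CPM (-1.67, SE 0.06, adjusted p = 4.2e-13), while UNC5B and SEMA7A (1.66) rose.

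Cytosolic ribosomal proteins had the largest share of higher members of the lists (80.5%). Of 82 tested, 66 were higher and 5 lower, with a median log2 fold change of 0.30, and when scaled by library totals and not TMM the numbers were 53 and 6 and the median 0.24. RPS27 went from 246 ± 5.46 to 350.1 ± 17.1 CPM (0.51), while RPL11 fell from 522, 504 and 522 to 345, 361 and 348 CPM (-0.55, SE 0.05, adjusted p = 5.3e-08) against 560.3, 617 and 604 CPM in siELMO1. RPL26L1, a copy of RPL26, also fell (-1.26), and ribosomal protein genes have many processed copies that may take part of their reads. All 13 mitochondrially encoded protein genes had positive values, 6 past the test, with a median log2 fold change of 0.54. MT-ND4 (0.77), MT-CO1 (0.66) and MT-CO2 (0.54) lost their calls without Mock replicate 1, without Mock replicate 3 or without siNT replicate 2 (adjusted p from 0.054 to 0.098), MT-CO2 also without Mock replicate 2, and in a fit of the 6 libraries alone all 13 passed. The groups did not overlap in any of the 13, which was also so for 35.4% of all genes tested on the higher side.

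**Figure D4:**
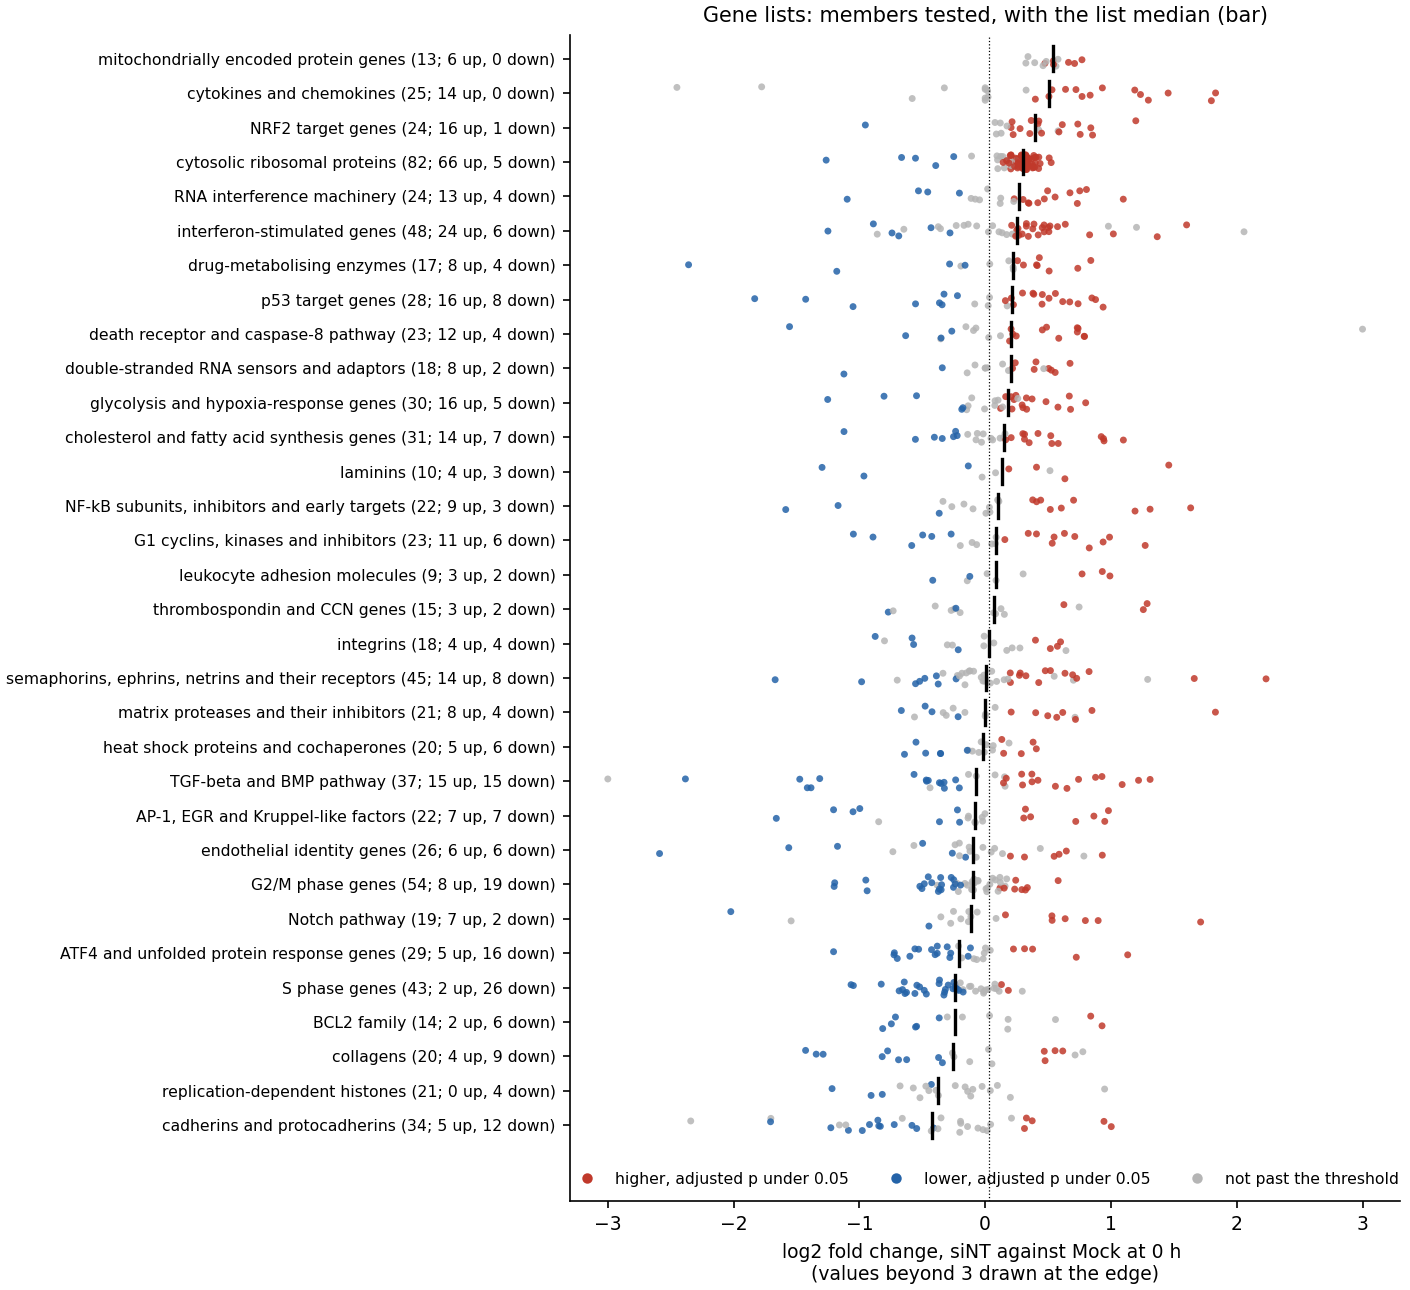
Log2 fold change of siNT against Mock at 0 h for each tested member of the gene lists with 9 or more members; labels give the members tested and the numbers higher (up) and lower (down) by adjusted p, black bars the list medians, and the dotted line the median of all genes tested, 0.03. Ribosomal protein points cluster right of the line, and S phase points mostly lie left of it.

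The libraries taken after 24 h with poly(I:C) share no library with the 0 h comparison, so they show whether a difference seen at 0 h was also there a day later, under stimulation. By then the study reports massive death of siNT cells and much less of Mock cells. It gives this as the likely reason for lower inflammatory expression in siNT. The siNT libraries at 24 h may therefore hold RNA of dying cells or of survivors, which was not tested. At 24 h 50.2% of the genes tested differed between siNT and Mock by adjusted p, 25.2% higher and 24.9% lower, and 438 genes (2.89%) were higher and 581 (3.83%) lower in siNT than in Mock with a fold over 2. Of the 655 genes lower at 0 h, 182 were lower at 24 h by the same thresholds, 27.8% of the 0 h list and 31.3% of the 24 h list, and 441 were lower by adjusted p alone. Of the 333 genes higher at 0 h, 110 were higher at 24 h, 33.0% of the 0 h list and 25.1% of the 24 h list, and 217 by adjusted p alone. Opposite changes by adjusted p were found for 13 of the 655 and 21 of the 333. The median log2 fold change went from -1.29 at 0 h to -0.70 at 24 h over the lower genes and from 1.30 to 0.79 over the higher genes. The genes called at 24 h in turn had medians of -1.33 and 1.32 at 24 h and -0.69 and 0.56 at 0 h, so that in each case the values were larger at the time by which the genes were chosen. A test of the difference between the times (interaction in the same model) called 638 genes with a fold over 2 of all 15167, 337 higher (2.22%) and 301 lower (1.98%) at 24 h than at 0 h, and 31.0% of genes by adjusted p alone. For 316 of the 655 and 143 of the 333 the effect was smaller at 24 h by adjusted p, against 11 and 8 for which it was larger. These genes were chosen by the 0 h values that also enter the interaction. A smaller effect at 24 h was thus favoured in advance, and these counts alone do not show that the effect faded.

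**Figure D5:**
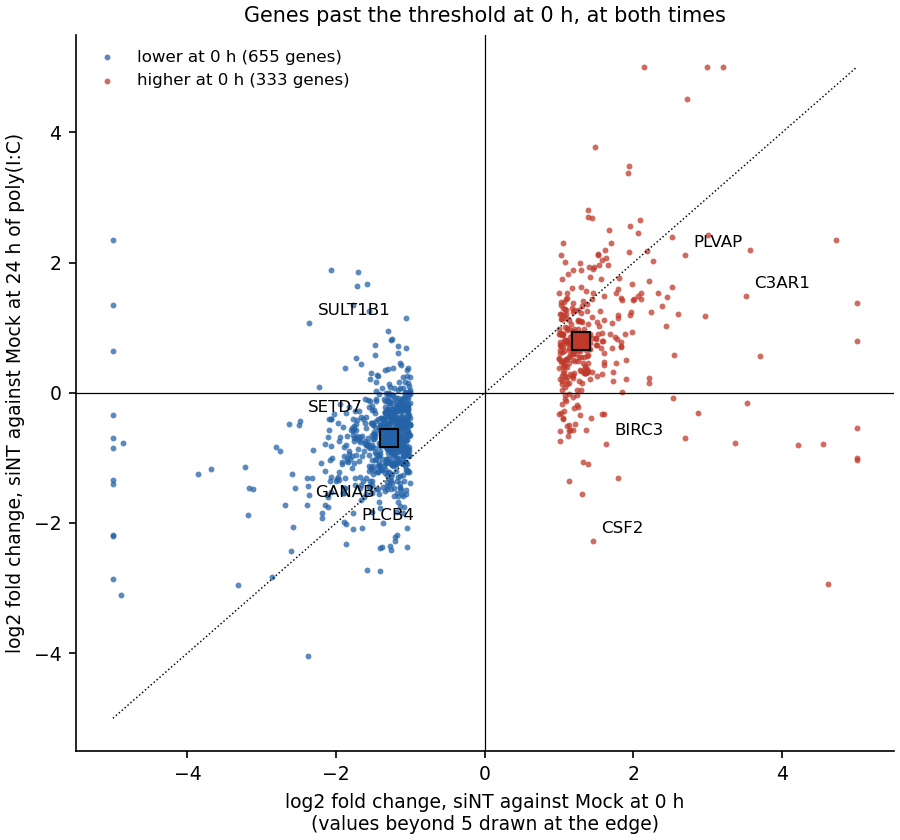
Each point is a gene called at 0 h, lower (blue, 655) or higher (red, 333) in siNT, with its log2 fold change against Mock at 0 h across and after 24 h of poly(I:C) up; large squares are the medians and the dotted line marks equal values. Most points lie between the dotted line and 0, which the choice of genes by their 0 h values favours, and SULT1B1, CSF2 and BIRC3 have crossed to the other side.

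Individual genes differed in how the 24 h value compared with the 0 h value. PLCB4 (-1.78 at 0 h and -2.09 at 24 h), OGFR (-2.19 and -1.85) and LINC01111 (-2.86 and -2.82) were low at both times. SETD7 was closer to Mock at 24 h, with 44.8, 46.5 and 45.0 CPM in Mock and 32.8, 36.6 and 31.9 CPM in siNT (log2 fold change -0.43, interaction 2.06, SE 0.09, adjusted p = 1.3e-10), and so was ZNF664 (-0.49, interaction 2.01, SE 0.07, adjusted p = 8.0e-12). GANAB remained low, with 581, 554 and 572 CPM in Mock and 159, 162 and 195 CPM in siNT at 24 h (-1.72). SULT1B1 reversed, with 92.6, 104 and 73.9 CPM in Mock and 212, 202 and 155 CPM in siNT at 24 h (1.07, SE 0.11, adjusted p = 4.6e-07), and its siNT libraries were the higher ones without overlap. On the higher side, LAMA5 (1.46 and 1.53), SPARC (1.26 and 1.11) and CCND1 (1.27 and 1.10) had similar values at the 2 times, and TGFBR2 (1.09 and 0.19, interaction -0.90, SE 0.08, adjusted p = 1.4e-07) was closer to Mock. Of the 12 abundant lower genes 11 were still lower at 24 h by adjusted p, and of the 12 abundant higher genes 11 were still higher, the exception being JUP (0.55, adjusted p = 0.098; 0.61, adjusted p = 0.045 with a replicate block).

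At 24 h siNT lay below Mock by adjusted p for most members of the innate immune lists, those not higher at 0 h included: 44 of 48 interferon-stimulated genes, 20 of 22 NF-κB genes, 18 of 25 cytokines and chemokines and 10 of 18 sensors and adaptors, beside 24.9% of all genes. Of the 14 cytokines and chemokines higher in siNT at 0 h, 7 were lower than Mock at 24 h and 2 higher, and the list median was -2.28 at 24 h. IFNB1, IFNL1, TNF, CXCL10 and CXCL11 were at or near 0 in Mock and siNT at 0 h and passed the filter only through other libraries. Their 24 h values (-3.78 to -1.95) enter the 18 of 25 and this median, so neither is independent of the filter. The same holds for interferon-stimulated genes such as MX2 and GBP4, which were under 1 CPM in both groups at 0 h. Of the 9 higher NF-κB genes 8 were lower at 24 h, and of the 24 higher interferon-stimulated genes 21 were lower at 24 h and 1 higher. Of the 8 higher sensors and adaptors, 2 were lower and 3 higher at 24 h, and of the 3 higher adhesion molecules 1 was lower and 2 were higher. CXCL8 had 1202, 1116 and 1138 CPM in the Mock libraries at 24 h and 260.1, 243 and 207 CPM in siNT (-2.28, SE 0.11, adjusted p = 4.8e-11; interaction -2.68, SE 0.15, adjusted p = 2.2e-09). ICAM1 had 839.6, 821 and 915 and 289, 303 and 326 CPM at 24 h (interaction -2.48, SE 0.10, adjusted p = 1.2e-10), and BIRC3 150.3, 159 and 171 and 90.6, 85.8 and 103 CPM (interaction -2.42, SE 0.20, adjusted p = 1.0e-07). In these 3 genes siNT started above Mock and was below it after poly(I:C). IL1B was an exception, with 132, 125 and 124 CPM in Mock and 227, 230.2 and 171 CPM in siNT at 24 h, still higher (0.72, SE 0.08, adjusted p = 1.5e-06). TLR3 had 145, 136 and 162 CPM in Mock and 115, 110.3 and 149 CPM in siNT at 24 h (-0.24, SE 0.11, adjusted p = 0.065; -0.25, adjusted p = 0.0041 with the replicate number as a block among the 24 h libraries; interaction -0.77, SE 0.15, adjusted p = 9.8e-04). Of the 26 lower S phase genes 25 were lower at 24 h and all 19 lower G2/M genes were, with 37 of 43 and 43 of 54 lower over the whole lists. An interaction toward lower values at 24 h was called by adjusted p in 16 of the 43 and 34 of the 54, beside 16.0% of all genes. Of the 66 higher ribosomal protein genes 30 were higher and 2 lower at 24 h, beside 25.2% and 24.9% of all genes. The RNA interference genes kept their direction in 10 of 13 higher members and 2 of 4 lower members. At 24 h the time since transfection and the exposure to poly(I:C) had both increased, and their parts in these differences cannot be told apart. By the study's account cell death also differed between siNT and Mock at 24 h, and its part was not tested.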

How the data were processed

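Total RNA of EA.hy926 cells was made into stranded poly(A) libraries and sequenced as paired ends. As the study's methods describe, the authors aligned reads to GRCh38 with STAR, assembled and quantified Gencode v44 genes with StringTie and converted coverage to estimated counts, which they deposited without normalization as whole numbers; 1 estimated count is not exactly 1 read, and neither the read length used in this conversion nor the strand setting is given in the sources used here, so overlapping genes are uncertain. Of 62754 genes in the table, the 15167 that summed to 100 or more counts and reached 1 CPM in a library were tested, the filter that the methods state.

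All 18 libraries were fitted together by group with edgeR 4.0.16 (R 4.3.3) using TMM factors and its quasi-likelihood test. The standard error is the log2 fold change divided by the root of F. Adjusted p values (Benjamini-Hochberg) run over all genes tested; genes were called at an adjusted p under 0.05 and, where stated, a fold over 2. Values of single libraries are listed in the order of their replicate numbers, and the methods call them biological replicates. DESeq2 1.42.0, limma 3.58.1 (voom), other scalings and filters, the 6 libraries alone and each library left out served as alternatives. The fit was also run on simulated counts in which few genes changed, equally many up and down. In these data 51.6% of genes were called, so that run does not test the scaling used here.

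Genes were named by rule: the 15 largest changes in each direction with a gene name, at least 1 CPM in a group and no overlap, the 3 smallest adjusted p in each list, and ELMO1, TLR3, CXCL8, IL6, CASP8 and AGO2. Other named genes, the abundant genes included, were chosen after their values were seen, and the histone list was corrected then. The comparison, the lists and the tests were chosen with earlier results of these data known. Some genes that the rule names are not reported here. Marker genes of other cell types were summed in CPM. Coordinates are those of Gencode v44 on GRCh38. At 24 h same-numbered Mock and siNT libraries deviated together (r 0.288, 0.335 and 0.250 over 9644 genes). This pairing entered only the alternative fits with a block. The 24 h and interaction values given are from the main fit, which has no block, unless a block is named.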

Additional observations from a re-analysis of the deposited data

Results flagged for a closer look

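Of the 174 genes named or examined singly, 40 differed between 0 h and 24 h in the effect of siNT against Mock, by the interaction test of the same model with a fold over 2 (edgeR, adjusted p at most 0.024), beside 2.22% and 1.98% of all genes tested in each direction; genes named for their 0 h values were not chosen independently of this test, and 39 of the 40 are given here. Values in parentheses are log2 fold changes at 24 h minus those at 0 h.

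In 12 genes siNT was above Mock at 0 h and below it at 24 h in the fitted value: OAS1 (-1.32), IL1A (-1.27), ICAM1 (-2.48), JUNB (-1.003), CXCL8 (-2.68), CCL20 (-3.10), CSF2 (-3.73), CXCL2 (-3.17), CCL2 (-2.21), TNFAIP3 (-1.46), BIRC3 (-2.42) and NFKBIA (-1.17). In the opposite order, below Mock first and above it later in the fitted value, stood SULT1B1 (3.43), TUBA8 (2.32), ITGA6 (1.10), ITGB3 (2.04) and PCDH10 (1.06). The 24 h log2 fold changes of IL1A (-0.04, adjusted p = 0.68), JUNB (-0.14, adjusted p = 0.20) and TUBA8 (0.09, adjusted p = 0.80) did not pass the edgeR test. IL6 started level with Mock and was far below it at 24 h (-3.28).

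Rises at 0 h that were smaller at 24 h were those of TMC8 (-2.39), C3AR1 (-2.03), LINC01605 (-1.41), IL1B (-1.11), CSF1 (-1.25) and LFNG (-1.03). Falls at 0 h that were smaller at 24 h were those of LINC02547 (1.64), NES (1.98), CLEC14A (1.35), CDK14 (1.09), ZNF664 (2.01), SETD7 (2.06), PERP (1.61), NTN4 (1.29), TPM4 (1.13), KIF1C (1.70) and VOPP1 (1.37). The effect grew for PTGS2 (-1.13) and ATF3 (-1.01).

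RPL13AP26 gave a value of 11.60 and LINC01293 of 5.21, and both rest on groups with no count in any library (siNT at 0 h for the first, Mock at 24 h for the second), so that the values depend on the prior count and give no bound. Groups of 3 libraries are too small for a test of single outlying libraries. The causes of these differences were not tested.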

How the results depend on the processing

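The 4 counts of genes kept their direction and stayed within 1.5 times the main count under all alternatives run: genes higher at 0 h ran from 283 to 400 over 15 alternatives (333 in the main test), genes lower from 624 to 776 (655), genes with an interaction from 582 to 706 over 21 alternatives (638), and genes called in the same direction at both times from 270 to 311 (292). The lowest higher count and 769 lower genes came from library totals without TMM factors, and the highest of both from edgeR's default filter. Leaving out each library in turn gave 293 to 338 higher and 624 to 720 lower genes, 582 to 700 interactions and 270 to 310 shared genes. With the replicate number as a block the numbers were 334 higher and 665 lower genes, 640 interactions and 293 shared genes. At 0 h the deviations of same-numbered Mock and siNT libraries had r 0.13, 0.073 and -0.0079 over 9644 genes. Pairs of unlike number had r from -0.15 to 0.093. The labels do not say whether a number marks a shared day or culture, so whether the 0 h libraries were paired is not known. Blocks within each time, added after seeing the data, gave 680 interactions, and a block among the 24 h libraries alone 291 shared genes; of the named 0 h calls the block changed only CLDN7 (adjusted p = 0.064). Of 2607 repeats of 174 single-gene results, 2571 kept direction and side of the threshold, 25 lost the call, 3 gained it and 8 turned sign. Those that turned were not past the threshold: ELMO1 (main -0.04) ran from -0.13 without siNT replicate 3 to 0.032 without siNT replicate 2, and IL6 (main 0.02) was -0.053 with limma-voom, -0.037 with library totals, -0.013 without mitochondrially encoded genes, -0.010 in the 6 libraries alone, and ran from -0.20 without siNT replicate 1 to 0.30 without siNT replicate 2. Lost calls were those given beside CLDN7, RGS13, LYZ, MT-CO1, MT-CO2, MT-ND4, CXCL8, CCL20 and CSF2, and that of IFI44L without Mock replicate 2 (0.24, adjusted p = 0.056); VWF, KDR and MKI67 passed in the 6 libraries alone (adjusted p = 0.0015, 0.019 and 0.016). The cause of these changes was not tested. List medians moved by more than the spread in 174 of 524 repeats and the medians of thrombospondin and CCN genes, integrins, matrix proteases and guidance genes, all close to 0, changed sign under some alternatives. In the 6 libraries alone more list members passed as lower: 7 in the death receptor pathway (4 in the main test), 5 of Notch (2), 4 of thrombospondin and CCN genes (2) and 7 of matrix proteases (4). Library totals gave smaller positive medians for adhesion molecules (0.027, main 0.086), G1 genes (0.027, main 0.087) and sterol synthesis genes (0.087, main 0.15). Collagens had medians between -0.38 and -0.064 over all alternatives. With 3 libraries a group and a median standard error of 0.09, small changes of a gene with few counts were not detectable, and a value that did not pass does not show that the groups were alike.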
